A study of Mus musculus with 3 samples.

Results

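Collagens are the 44 mouse genes whose symbol is Col, a chain type number, the letter a and a chain number, taken from the 31062 gene rows of a single-cell count table without regard to their level. The cells came from brains of female C57Bl/6 mice, 2 to 3 months old, in which E0771 mouse mammary carcinoma cells had been injected into the carotid artery to form metastases. Every other day from day 3, some of the mice received anti-VISTA with anti-PD-L1, which block inhibitory receptors and ligands of immune cells, and others did not. A biological sample was 1 brain hemisphere, enriched for immune cells on a Percoll gradient, so cancer and vessel cells are the cells that passed with them. The 8 samples carried 1 hashtag antibody each and were pooled with 35 other antibodies in 1 capture, from which 3 libraries (transcripts, antibody tags, hashtags) share the same cell barcodes. No source used here says which hashtags were treated, so cell classes were compared within hashtag samples and no treated group was formed. Whether every hashtag was its own animal is likewise not stated, and the p-values then reflect the spread between hashtags, which may be technical.

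A collagen molecule is 3 chains wound into a helix, and each chain has its own gene. Type IV chains form the sheet of every basement membrane, including the one that endothelial cells and pericytes share in brain capillaries. Type VI chains form beaded filaments at cell surfaces, types I, III and V form banded fibrils of connective tissue, and type XVIII is a basement membrane collagen whose end fragment is endostatin. Parenchyma of the healthy brain holds few fibrillar collagens outside vessels and meninges.

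Cells were sorted into classes by UMIs (unique molecular identifiers, 1 per captured transcript) of marker genes. Of 9896 hashtag singlets, 4320 passed a gate on epithelial markers, 379 an endothelial gate (Cldn5, Cdh5, Pecam1, Flt1, Slco1a4, Tie1) and 18 a mural gate (Rgs5, Kcnj8, Abcc9, Higd1b, Vtn, Notch3, Atp13a5), mural cells being pericytes and vascular smooth muscle. A further 116 passed both vascular gates and are called endothelial-with-mural. Whether such a barcode held 1 cell or several was not tested. Of the 6 epithelial markers only Krt8 was clearly present in the first class, at 381 CPM (UMIs per 1000000 UMIs of the class), with Krt18 at 4.98 and Krt7, Krt19, Epcam and Cdh1 each under 1, so the class is called Krt8-gated. The transgene mCherry stood at 3.46 CPM in Krt8-gated barcodes, 0.216 in endothelial and 0.113 in T and NK barcodes, but also at 3.44 in the 793 singlets that passed no gate. Not thinned to a common depth, 21.1% of Krt8-gated barcodes held a UMI of it (95% exact binomial interval 19.9 to 22.3), 4.79% of those in no gate and 0.264% of endothelial ones. The leukocyte tag CD45 had a median of 34 counts in Krt8-gated, 16 in endothelial and 1331 in myeloid barcodes. Pooled over 60 mural barcodes, of which 42 had no hashtag call, Acta2 stood at 13479 and Tagln at 11229 CPM, both smooth muscle genes. Median depth was 85646 UMIs in Krt8-gated, 6394 in endothelial, 8327 in endothelial-with-mural and 4918 in mural barcodes. Sums of at least 10 barcodes were available from 8 samples for the Krt8 gate, 7 for the endothelial gate (samples 2 to 8), 4 for endothelial-with-mural (samples 3, 5, 6 and 7) and 1 for the mural gate (sample 5, 10 barcodes, 43869 UMIs). Intervals here cover counting error only.

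RefSeq positions on build GRCm38.p6 were found for all 44 members, and promoter windows (250 bases before to 50 after the start) for 35 of them. Col4a1 (ENSMUSG00000031502) and Col4a2 (ENSMUSG00000031503), the pair that carries the endothelial result, lie head to head, starting 21 bases apart on opposite strands, and their gene models overlap by 85 bases. The windows are shown because they overlap and are read in opposite directions, at chr8:11312777-11313076 on the minus strand for Col4a1 and chr8:11312555-11312854 on the plus strand for Col4a2. Capitals mark the 78 bases, 11312777 to 11312854, that lie in both.
Col4a1: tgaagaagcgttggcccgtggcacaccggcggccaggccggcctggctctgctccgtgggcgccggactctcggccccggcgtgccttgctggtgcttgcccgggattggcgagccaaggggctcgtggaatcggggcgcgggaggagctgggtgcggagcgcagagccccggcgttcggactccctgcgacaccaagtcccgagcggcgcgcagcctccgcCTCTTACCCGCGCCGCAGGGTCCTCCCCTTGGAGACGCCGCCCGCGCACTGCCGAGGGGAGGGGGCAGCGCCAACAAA
Col4a2: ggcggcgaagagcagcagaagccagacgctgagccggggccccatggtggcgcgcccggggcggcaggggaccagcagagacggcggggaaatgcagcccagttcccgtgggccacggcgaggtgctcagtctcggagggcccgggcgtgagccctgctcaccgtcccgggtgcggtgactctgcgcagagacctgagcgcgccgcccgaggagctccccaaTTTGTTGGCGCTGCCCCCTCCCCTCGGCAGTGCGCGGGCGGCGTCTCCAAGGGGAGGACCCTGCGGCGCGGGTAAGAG

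The mural result turns on Col1a2 (ENSMUSG00000029661) and Col3a1 (ENSMUSG00000026043), a pair of fibrillar chain genes on different chromosomes whose windows are unlike each other. The Col1a2 window lies at chr6:4505368-4505667 and the Col3a1 window at chr1:45311288-45311587, both on the plus strand. Capitals here mark matches, on either strand, to the GC box GGGCGG, the CCAAT box CCAAT and the TATA box TATAAA.
Col1a2: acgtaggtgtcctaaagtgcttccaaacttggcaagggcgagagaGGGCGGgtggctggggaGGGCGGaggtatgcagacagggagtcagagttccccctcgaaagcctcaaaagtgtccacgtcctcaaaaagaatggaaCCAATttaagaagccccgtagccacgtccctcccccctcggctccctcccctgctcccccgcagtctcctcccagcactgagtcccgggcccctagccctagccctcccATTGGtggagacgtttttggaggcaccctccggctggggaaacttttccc
Col3a1: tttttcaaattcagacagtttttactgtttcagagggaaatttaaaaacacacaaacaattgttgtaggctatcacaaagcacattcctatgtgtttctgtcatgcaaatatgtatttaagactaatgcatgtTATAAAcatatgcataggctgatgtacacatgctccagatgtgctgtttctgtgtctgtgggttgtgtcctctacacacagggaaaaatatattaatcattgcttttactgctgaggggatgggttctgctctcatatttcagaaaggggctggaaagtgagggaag

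The Col1a2 window held 2 GC box and 2 CCAAT box matches at 61.0% G and C. The Col3a1 window held 1 TATA box match and no match to the others at 37.7% G and C. Among all 32851 windows of this length, 35.7% held the GC box, 37.4% the CCAAT box and 13.6% the TATA box, and the 38 windows of collagen members held them in 60.5, 34.2 and 13.2%. The Col4a1 window had 1 GC box match and the Col4a2 window 3, with 1 CCAAT box match in each and no TATA box match. A match is a run of letters and not a measured binding site.

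**Figure D1:**
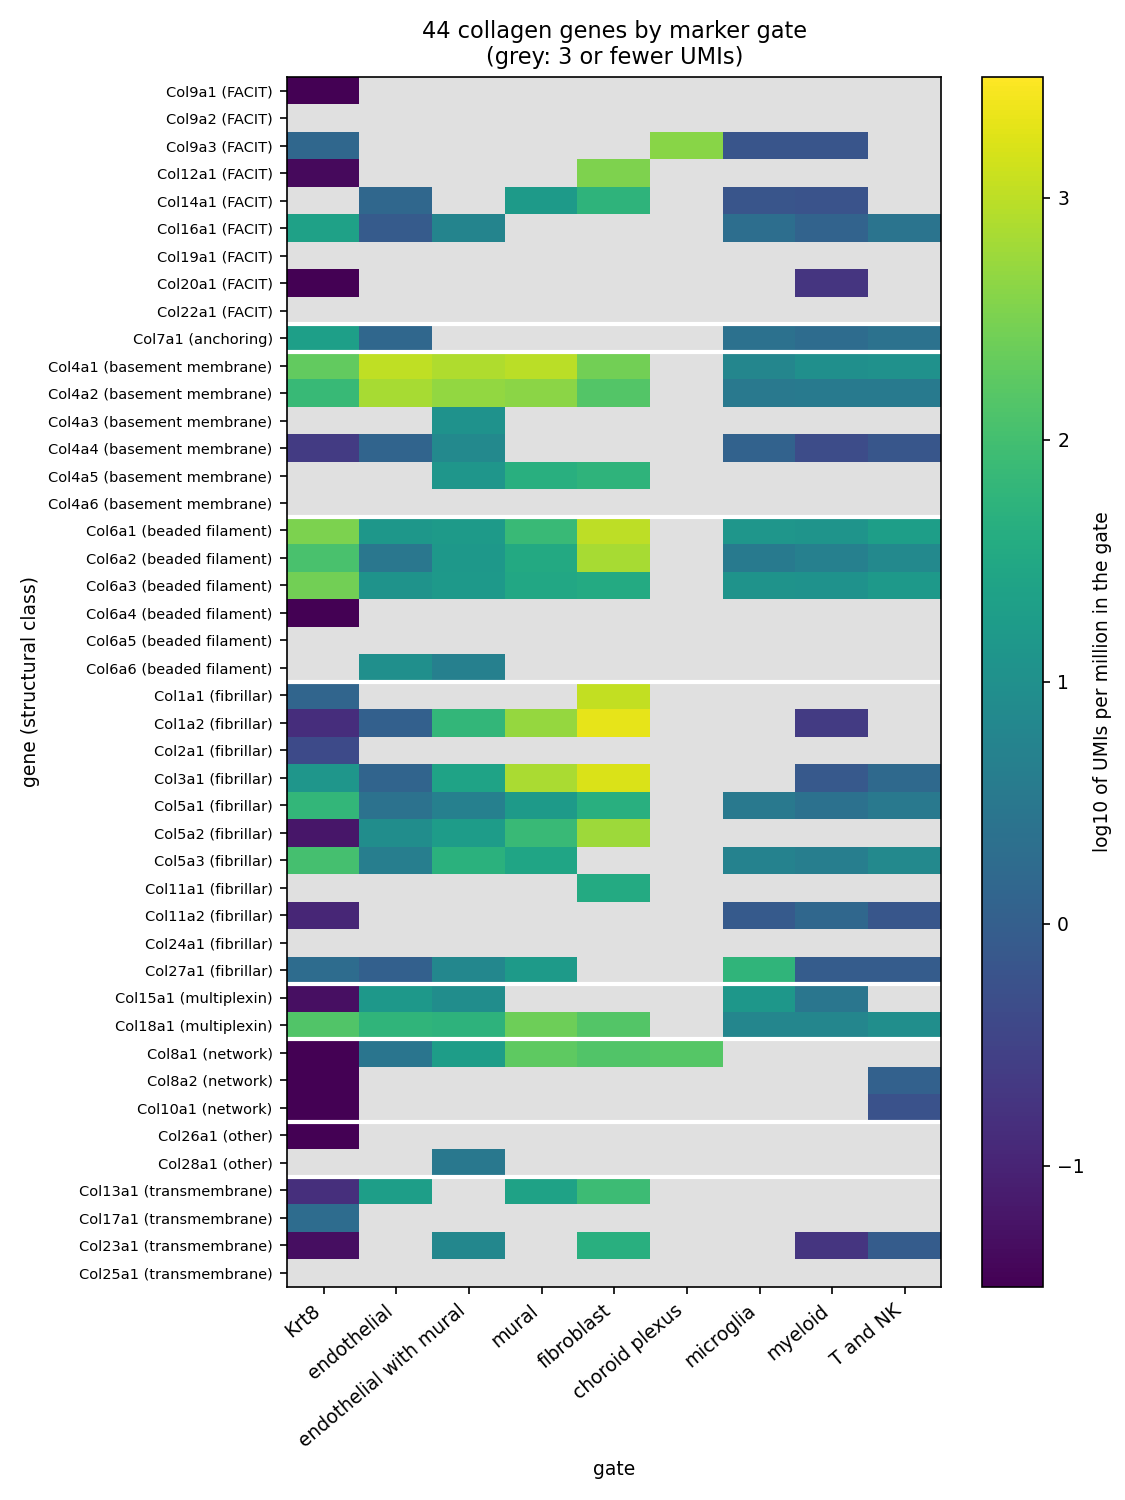
Each row is 1 of the 44 collagen genes, grouped by structural class, and each column a marker gate; colour is log10 of CPM over all barcodes of the gate (singlets, plus hashtag-negative barcodes for the mural, fibroblast and choroid plexus gates), and grey marks 3 or fewer UMIs. Col6a1 and Col6a2 are bright in the Krt8 and fibroblast columns, Col6a3 in the Krt8 column, Col4a1 and Col4a2 across the vascular columns, and Col1a2 and Col3a1 in the mural and fibroblast columns.

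Collagens as a whole took a larger share of the transcripts in cancer and vessel cells than in lymphocytes. Summed over the members, collagen CPM had a median of 1301 in Krt8-gated sums (1235 to 1514, n = 8), 1932 in endothelial sums (1422 to 2725, n = 7) and 1348 in endothelial-with-mural sums (1219 to 2065, n = 4). The endothelial total was above the Krt8-gated total in 7 of 7 pairs, a difference that was not tested. Over all samples, 68 deep endothelial barcodes, described below, held 2616282 of 4635336 endothelial UMIs. They held Col4a1 at 1373 CPM and the other endothelial barcodes at 681. The order of the totals without these deep barcodes was not examined. The 1 mural sum stood at 2348. T and NK barcodes, which are not known to make collagen, had a median of 89.8 (77.5 to 108, n = 7). The classes divided this total differently. Type VI chains took 52.2% of collagen UMIs in the median Krt8-gated sum (51.5 to 55.9) and 1.84% in the median endothelial sum (1.05 to 4.58). Type IV chains took 20.2% (18.4 to 22.7) and 90.5% (85.5 to 94.5) in the same order. Type I and type III chains together made up little of either, but in the mural sum type I was 16.5% and type III 15.5% of 103 collagen UMIs. The ranges of Krt8-gated and endothelial sums did not overlap for type IV or type VI. In T and NK sums type VI took 44.7% (28.6 to 61.8) and type IV 14.7% (7.89 to 28.6) of the few collagen UMIs, a division nearer to that of Krt8-gated than of endothelial sums.

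Between Krt8-gated and endothelial cells, the basement membrane chains Col4a1 and Col4a2 were higher in endothelial cells, and the type VI chains Col6a1, Col6a2 and Col6a3 with Col5a1, Col5a3, Col7a1, Col16a1, Col3a1 and Col18a1 were higher in Krt8-gated cells. Of the 44 members, 18 passed the filter on low counts and 26 did not. All 18 that passed differed, 10 higher and 8 lower in Krt8-gated cells, at an adjusted p under 0.05 (edgeR quasi-likelihood test with the hashtag sample as a block, 7 pairs, Benjamini-Hochberg over 12112 genes). These classes differ in most genes: 37.1% of all genes tested were higher and 35.7% lower in Krt8-gated cells. A member kept by the filter only for its level in 1 class had to differ, so the count is given as a description. The same limit holds, here and in all comparisons below, for p-values of genes near 0 in 1 class. Among them are Col15a1, Col13a1, Col5a2 and Col8a1, at means of 0.02 to 0.14 CPM in Krt8-gated sums. The median log2 fold change was 2.35 over the tested members and 0.02 over all genes.

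Col4a1 encodes the most common chain of the type IV sheet. Its level was 798 CPM in the lowest endothelial sum, 1097 in the median and 1452 in the highest, against 170, 197 and 231 in Krt8-gated sums. Every endothelial sum stood above every Krt8-gated one. The log2 fold change of Krt8-gated over endothelial was -2.31 (SE 0.09, edgeR adjusted p 8.839e-17), lower in 7 of 7 pairs. Col4a2, the partner chain, ran from 470 through a median of 728 to 1007 in endothelial sums and from 62.4 through 71.1 to 85.8 in Krt8-gated ones, again with no overlap. Its log2 fold change was -3.10 (SE 0.11, adjusted p 6.968e-18). With barcodes above 3 times their class median UMIs left out, these values fell in size to -1.32 and -2.42.

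Within the endothelial gate the type IV chains went with depth and with cell cycle genes. The 68 barcodes above 3 times the class median (19182 UMIs) held Col4a1 at 1373 CPM and Col4a2 at 802, and the other 311 held 681 and 537. Those 68 barcodes held Mki67 at 167 and Top2a at 269 CPM, both genes of dividing cells, against 4.46 and 18.8 in the rest. Krt8 was 4.59 and 13.9, Ptprc, which encodes CD45, was 4.59 and 8.42, and the endothelial marker Cldn5 3328 and 5072. In each of the 6 hashtag samples with at least 5 such barcodes, Col4a1, Col4a2, Mki67 and Top2a were all higher in the deep barcodes. Over those samples Col4a1 ran from 1215 to 1853 in deep barcodes and from 356 to 1050 in the others, with no overlap. Col4a2 ran from 613 to 1258 and from 268 to 802, which overlap. In samples 1 and 4, with 1 and 2 deep barcodes, Col4a2 was lower in these (914 against 1061 and 738 against 816). This split was made after the effect of depth on Col4a1 was seen, and no test was run on it.

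The type VI chains Col6a1, Col6a2 and Col6a3 assemble together into 1 filament unit. Col6a1 stood at 283 CPM in the lowest, 338 in the median and 416 in the highest Krt8-gated sum, and at 7.91, 14.97 and 29.6 in endothelial sums. Its log2 fold change was 4.66 (SE 0.15, adjusted p 2.982e-18), higher in 7 of 7 pairs. Col6a3 ran from 182 through 253 to 313 in Krt8-gated sums and from 8.47 through 13.5 to 15.5 in endothelial sums. Its log2 fold change was 4.64 (SE 0.15, adjusted p 1.695e-18). Col6a2 ran from 99.8 through 118 to 151 and from 0 through 1.76 to 12.4, with a log2 fold change of 5.47 (SE 0.24, adjusted p 7.505e-16). For all 3 genes the classes did not overlap. The endothelial values were at the level of lymphocytes: T and NK sums had medians of 20.5 for Col6a1, 6.84 for Col6a2 and 15.4 for Col6a3. These type VI levels in T and NK barcodes were between 5.71 and 6.17% of the Krt8-gated level. Thinned to 2000 UMIs per barcode, 3.78% of 370 endothelial and 4.35% of 1403 T and NK barcodes held a Col6a1 UMI, against 45.3% of Krt8-gated ones (median depths before thinning 6394, 4814 and 85646). Before thinning the shares were 14.5, 11.4 and 99.9%. Thinned, the endothelial share was thus below that of T and NK barcodes. Whether endothelial type VI UMIs were background or low expression was not tested. The type VI folds are therefore not folds over an established endothelial level. With barcodes thinned to 2000 UMIs before summing, the log2 fold changes were 3.995 for Col6a1, 3.55 for Col6a3 and 4.61 for Col6a2. For Col4a1, a UMI was found in 62.2% of thinned endothelial barcodes, 32.2% of Krt8-gated and 2.28% of T and NK barcodes.

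Col6a6, another type VI chain, followed the endothelial cells. It had 45 UMIs in 22 of 379 endothelial barcodes and 0 UMIs in all 4320 Krt8-gated barcodes. Set against a floor of 3 counts over the whole Krt8 gate, it was at least 1302-fold higher in endothelial cells. It passed the filter only through its level outside the Krt8 gate, so no p-value is given for this difference. Its endothelial level ran from 0 through a median of 3.09 to 32.6 CPM, highest in sample 7.

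Among type V chains, which start and thin fibrils, the genes split between classes. Col5a1 ran from 53.1 through 63.3 to 69.4 CPM in Krt8-gated sums and from 0 through 1.76 to 7.40 in endothelial ones (log2 fold change 4.88, SE 0.25, adjusted p 1.793e-14). Col5a3 ran from 64.9 through 99.2 to 124 and from 0 through 5.08 to 8.98 (log2 fold change 4.78, SE 0.24, adjusted p 1.315e-14). Col5a2, which joins Col5a1 in the usual type V molecule, was lower in Krt8-gated cells, with 25 UMIs there and 41 in endothelial sums (log2 fold change -7.06, SE 0.57, adjusted p 1.989e-10). T and NK medians were 3.76 for Col5a1 and 5.43 for Col5a3, so the endothelial medians of both lay below those of lymphocytes. Thinned to 2000 UMIs per barcode, the log2 fold changes were 3.82 for Col5a1 and 3.47 for Col5a3, and Col5a1 gave 4.07 without deep barcodes.

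Col18a1 is the endostatin parent. Krt8-gated sums ran from 99.9 through 131 to 175 CPM and endothelial sums from 21.0 through 48.3 to 185, so the groups overlapped. The log2 fold change was 1.36 (SE 0.23, adjusted p 1.207e-05), higher in 6 of 7 pairs. Sample 2 gave the highest endothelial value, and was the pair in which the endothelial sum was higher. Without the deep barcodes the log2 fold change was 2.10. A Col18a1 UMI was held by 6.22% of thinned endothelial and 1.85% of T and NK barcodes, with intervals of 3.98 to 9.18 and 1.21 to 2.70 that did not overlap.

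Col16a1, a chain that sits on fibril surfaces, and Col7a1, the anchoring fibril chain of epithelia, were steady in Krt8-gated sums, at 20.8 to 26.1 and 17.3 to 23.7 CPM. Both were higher than in endothelial cells, with log2 fold changes of 4.86 (SE 0.39, adjusted p 1.149e-10) and 3.92 (SE 0.36, adjusted p 1.068e-09) by edgeR. The endothelial gate held 4 UMIs of Col16a1 and 7 of Col7a1, at pooled levels of 0.86 and 1.51 CPM. T and NK barcodes stood higher, at 2.71 and 2.37. Without sample 7 the value for Col16a1 was 5.64. Col3a1, the type III chain, varied between samples. It ran from 3.19 in sample 1 through a median of 13.9 to 19.97 in sample 8. Against endothelial cells it was higher by a log2 fold change of 3.34 (SE 0.40, edgeR adjusted p 9.937e-08), or 2.68 without deep barcodes. Its 6 endothelial UMIs gave a pooled level of 1.29 CPM, against 1.58 in T and NK barcodes. The type I chains were close to absent from both classes. Col1a1 had 538 UMIs in 121 Krt8-gated barcodes, a level of 1.35 CPM, and 0 UMIs in endothelial ones, at least 2.07-fold higher against the floor of 3 counts. Its call was lost without the replicate block (adjusted p 0.16) and with DESeq2 (adjusted p 0.1458). Col1a2 was called lower in Krt8-gated cells (log2 fold change -2.20, SE 0.93, adjusted p 0.03693), but its 5 endothelial UMIs came from 1 barcode, and Krt8-gated cells were higher in 6 of 7 pairs. The call was lost with no filter on low counts (adjusted p 0.0674), and the value was -3.16 without deep barcodes.

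Low-level chains that were higher in endothelial than in Krt8-gated cells were Col13a1, a chain anchored in the cell membrane, Col15a1, a vessel basement membrane relative of Col18a1, and Col8a1, a short-chain vessel wall collagen. Other classes held them too: over pooled barcodes Col13a1 stood at 20.5 CPM there, 24.0 in mural and 82.9 in fibroblast barcodes, and Col8a1 at 2.80, 182 and 138. Col13a1 ran from 0 through a median of 12.4 to 126 CPM in endothelial sums, with 95 UMIs in 19 barcodes, and its highest value was in sample 8. Its log2 fold change of Krt8-gated over endothelial was -7.16 (SE 0.74, adjusted p 8.281e-09), -6.37 without sample 8, -8.12 without sample 3 and -7.92 with DESeq2. The endothelial sum of sample 3 held none, and Krt8-gated cells were higher in that 1 of 7 pairs. Col15a1 ran from 3.09 through 13.7 to 29.9, with a log2 fold change of -7.98 (SE 0.57, adjusted p 1.112e-11), and -8.73 without sample 5. Microglia-gated sums held Col15a1 too, at a median of 14.4 (6.32 to 39.5, n = 7). Col8a1 had 13 UMIs in either class and a log2 fold change of -6.04 (SE 0.80, adjusted p 6.761e-07).

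**Figure D2:**
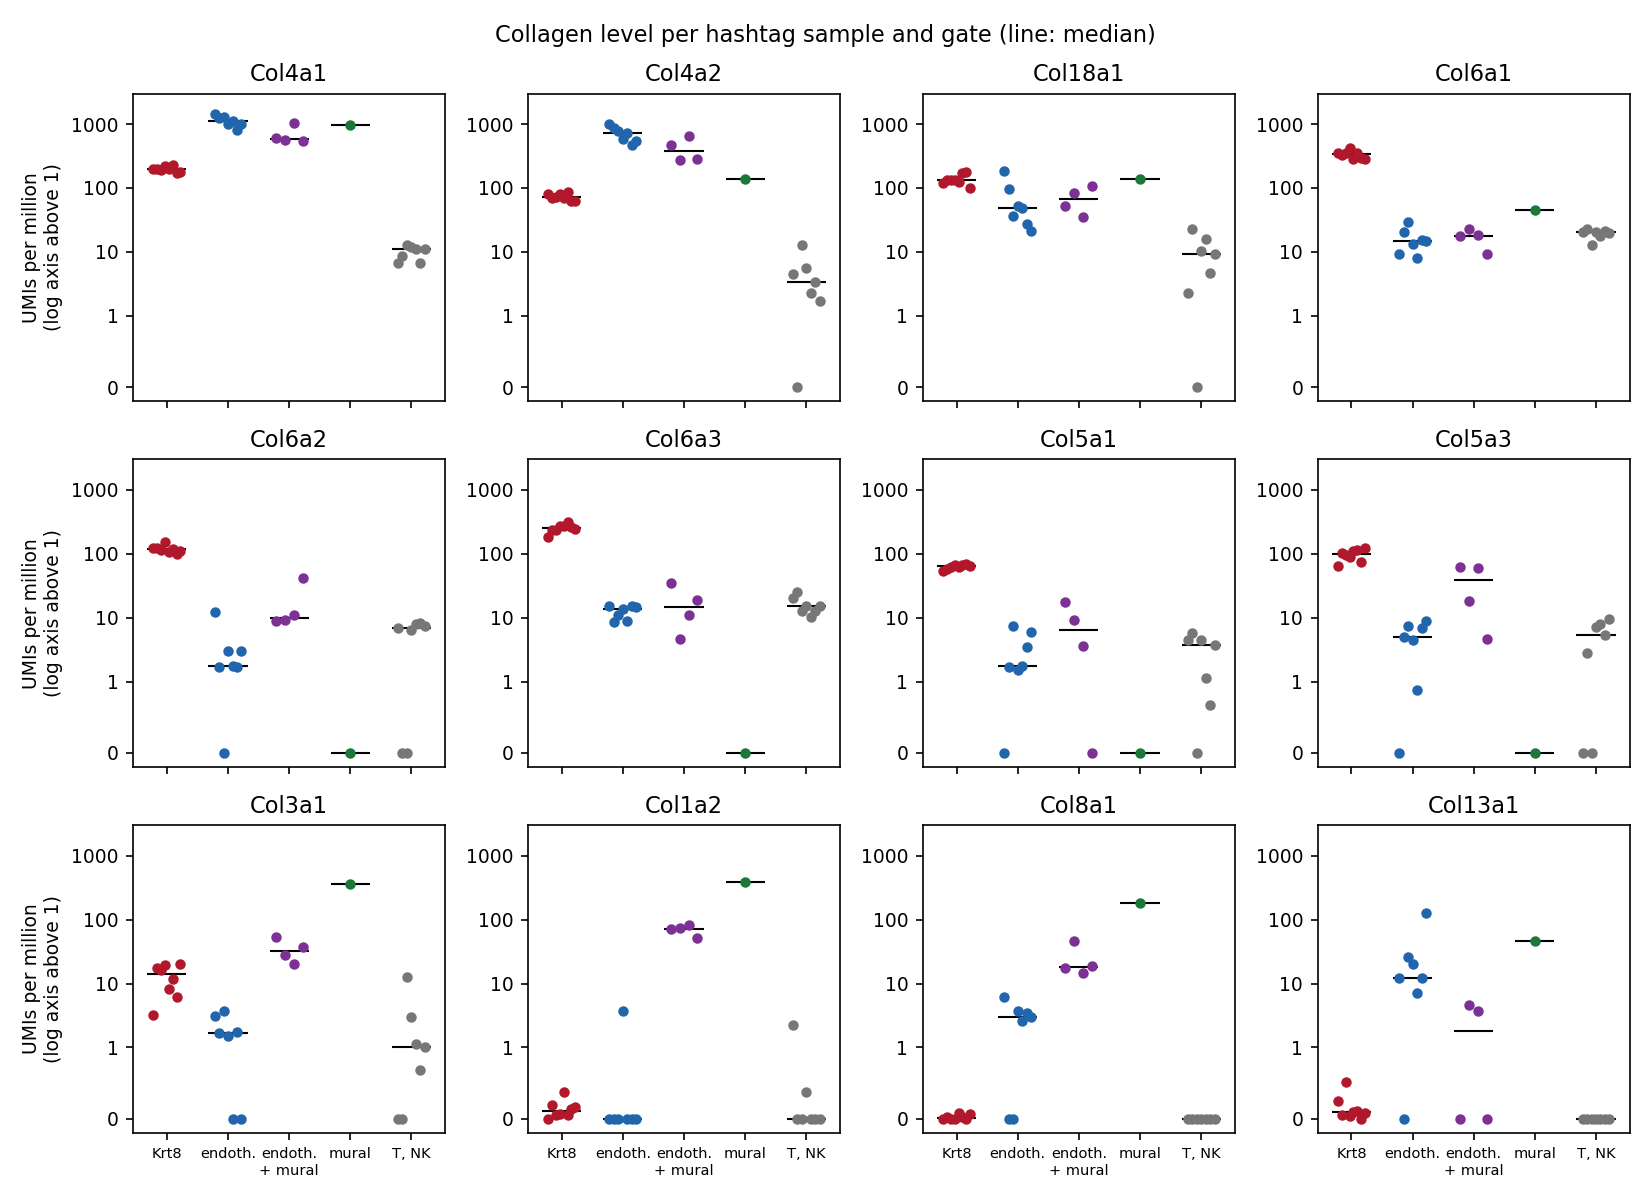
Each panel is 1 collagen gene; each point is the level in 1 hashtag sample, in CPM on an axis that is logarithmic above 1, and lines are medians (Krt8 n = 8, endothelial 7, endothelial-with-mural 4, mural 1, T and NK 7). Col4a1 endothelial points, 798 to 1452, lie above all Krt8 points, and Col6a1 Krt8 points, 283 to 416, above all others.

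Mural barcodes held type IV chains together with the fibrillar chains Col1a2 and Col3a1 and the vessel wall chain Col8a1. Most mural barcodes had no hashtag call (42 of 60), so pooled levels include them. Over the 60 barcodes (291568 UMIs), Col4a1 stood at 964 CPM (exact Poisson interval 854 to 1083) and Col4a2 at 432 (360 to 515). Col3a1 stood at 737 (642 to 843), Col1a2 at 504 (426 to 593), Col18a1 at 250 (196 to 315) and Col8a1 at 182 (136 to 238). Col1a1, the usual partner of Col1a2, had 0 UMIs. The 12 fibroblast-gated barcodes, by contrast, held Col1a1 at 1124 (933 to 1342) and Col1a2 at 2027 (1768 to 2313). The fibroblast marker Dcn was 13.7 in mural and 7977 in fibroblast barcodes. Col3a1 was in 24 of the 60 mural barcodes, Col1a2 in 37 and Col4a1 in 52.

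In the test of mural against endothelial cells, the 1 mural sum of sample 5 was assumed to vary like the other sums. Of 18 members tested, 3 were higher in mural cells, where 2.87% of all genes were, and 1 lower, where 3.07% were. The median log2 fold change over all 12112 genes was -1.54, and the values below stand against that. Col3a1 was 365 CPM against an endothelial maximum of 3.70 (log2 fold change 8.32, SE 0.75, edgeR adjusted p 7.158e-08). Col1a2 was 388 (log2 fold change 7.03, SE 0.89, adjusted p 9.683e-06), and Col8a1 182 against an endothelial maximum of 6.18 (log2 fold change 4.86, SE 1.08, adjusted p 0.00606). Col4a2 was lower, at 137 from 6 UMIs (log2 fold change -2.53, SE 0.50, adjusted p 0.001667), while Col4a1, at 957, gave -0.46 (SE 0.27, adjusted p 0.4538). Each alternative reused this 1 sum, so none of them bears on how mural sums vary. The Col4a2 level of 137 lay below the interval of 360 to 515 from the 60 pooled mural barcodes. Without the replicate block the values were 8.19 for Col1a2 and 5.70 for Col8a1, and without deep barcodes 5.91 for Col1a2 and 7.53 for Col3a1.

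Against the same mural sum, Krt8-gated cells had 4 members higher and 4 lower, beside 5.86 and 6.38% of all genes (edgeR, median log2 fold change over all genes 1.76). Lower in Krt8-gated cells were Col1a2 (log2 fold change -9.23, adjusted p 2.402e-07), Col3a1 (-4.98, adjusted p 1.164e-06), Col8a1 (-10.90, adjusted p 1.219e-06) and Col4a1 (-1.85, adjusted p 4.77e-05). Higher were Col6a1, with 2 mural UMIs and a ratio of 7.20 (exact interval 1.99 to 59.5), and Col6a3, Col6a2 and Col5a3, each with 0 mural UMIs. Against a floor of 3 mural counts these were at least 3.94, 1.70 and 1.54-fold higher. With DESeq2 the calls of Col6a1 (adjusted p 0.05426), Col6a2 (0.124) and Col5a3 (0.121) were lost. Without the replicate block Col5a3 was not called (adjusted p 0.1103), and the values were -10.85 for Col1a2, -4.30 for Col3a1 and -11.78 for Col8a1.

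The endothelial-with-mural barcodes gave a look at the same chains in 4 hashtag samples. This comparison was added after the marker sums were seen. These barcodes do not replicate the mural sum. Pooled, they held the smooth muscle genes Acta2 at 844 and Tagln at 729 CPM, against 13479 and 11229 in mural barcodes, hashtag-negative ones included. The mural gate markers with Pdgfrb summed to 7618 and 8934 CPM in the same order. In endothelial-with-mural sums Col1a2 was 69.9, 73.3, 82.2 and 51.6 CPM in samples 3, 5, 6 and 7, against an endothelial maximum of 3.75. Every sum stood far above every endothelial one, and the log2 fold change was 6.30 (SE 0.67, edgeR adjusted p 2.462e-07), higher in 4 of 4 pairs. It was 5.57 without sample 6, 5.05 without deep barcodes and 5.52 with only the 2 classes in the fit. Sample 5 held all 5 endothelial UMIs, and without it the fitted value, 13.70, is taken against 0 UMIs and is no bound. Col3a1 was 52.4, 27.5, 20.1 and 37.5 in the same samples (log2 fold change 4.63, SE 0.55, adjusted p 1.575e-06), with no overlap. Col8a1 was 17.5, 45.8, 14.6 and 18.8 (log2 fold change 3.04, SE 0.60, adjusted p 0.001081), likewise with no overlap. These 3 calls held under every alternative in which the gene was tested.

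In all, 17 members were tested there, with 6 higher and 2 lower than in endothelial cells, where 6.24% and 5.44% of all genes were. Col5a3 was uneven, at 61.1, 18.3, 60.2 and 4.69 (log2 fold change 3.12, SE 0.51, adjusted p 0.0001167), and fell short of the threshold without deep barcodes (adjusted p 0.05581) and thinned (adjusted p 0.533), with a value of 2.03 without sample 6. Col6a2 (log2 fold change 2.48, SE 0.60, adjusted p 0.006633) rested on sample 7, at 42.2 against 8.73 to 10.95 in the others, with an adjusted p of 0.1421 without it and 0.955 when thinned. Col16a1 had 7 UMIs (log2 fold change 2.69, SE 0.85, adjusted p 0.03985) and was not called when sample 3, 5, 6 or 7 was left out (adjusted p 0.05498 to 0.1183).

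The type IV pair was lower than in barcodes with endothelial markers alone. Col4a1 was 611, 564, 1055 and 535 CPM and fell by 0.77 on the log2 scale (SE 0.15, adjusted p 0.001222), lower in 4 of 4 pairs. Col4a2 was 472, 275, 646 and 286 and fell by 0.85 (SE 0.17, adjusted p 0.001264). Both calls were lost without deep barcodes, at log2 fold changes of -0.13 (adjusted p 0.7635) and -0.49 (adjusted p 0.07987). Thinned, they were -0.38 (adjusted p 0.2245) and -0.65 (adjusted p 0.06619). The minor type IV chains were found in this class at low counts. Col4a5 and Col4a6 lie on opposite strands of chromosome X with 1274 bases between them, and Col4a3 and Col4a4 overlap by 114 bases on chromosome 1. Col4a5 had 17 UMIs, Col4a3 14, Col4a4 9 and Col4a6 3, against 0, 3, 6 and 0 in 379 endothelial barcodes, and none of them passed the filter. Col6a1 (log2 fold change 0.21, SE 0.37, adjusted p 0.8233), Col6a3 (0.06, SE 0.41, adjusted p 0.9937) and Col18a1 (-0.06, SE 0.42, adjusted p 0.9658) were not called.

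Krt8-gated against endothelial-with-mural cells gave 8 members higher and 8 lower, beside 30.5 and 33.3% of all genes (edgeR, 4 pairs). This comparison shares its sums with those above. Col6a1 (log2 fold change 4.38, SE 0.25, adjusted p 1.623e-13), Col6a3 (4.50, SE 0.27, adjusted p 4.603e-13) and Col5a1 (3.74, SE 0.40, adjusted p 2.249e-08) were higher in Krt8-gated cells. Col5a3 was higher by less, at 1.60 (SE 0.31, adjusted p 0.0001049), and 2.33 without sample 6. Col1a2 (-8.88, SE 0.56, edgeR adjusted p 1.494e-12), Col8a1 (-9.11, SE 0.65, adjusted p 2.646e-11) and Col4a1 (-1.61, SE 0.15, adjusted p 1.63e-09) were lower. Krt8-gated means were 0.13 CPM for Col1a2, 0.02 for Col8a1 and 0.04 for Col15a1. The limit on p-values of genes near 0 in 1 class therefore holds for these 3 genes. Col3a1, higher in Krt8-gated than in endothelial cells, was lower than in this class (-1.37, SE 0.34, adjusted p 0.001314), though not without the replicate block (adjusted p 0.2019). Col13a1 was not called (adjusted p 0.08266) but was with DESeq2 (adjusted p 0.002337) and without sample 3 (adjusted p 0.007152). Col15a1 was called lower (-7.18, SE 1.18, adjusted p 1.199e-05), in 2 of 4 pairs, but not without sample 6 (adjusted p 0.1857), and Col18a1 higher (1.36, SE 0.38, adjusted p 0.003018), but not without sample 6 (adjusted p 0.05778).

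**Figure D3:**
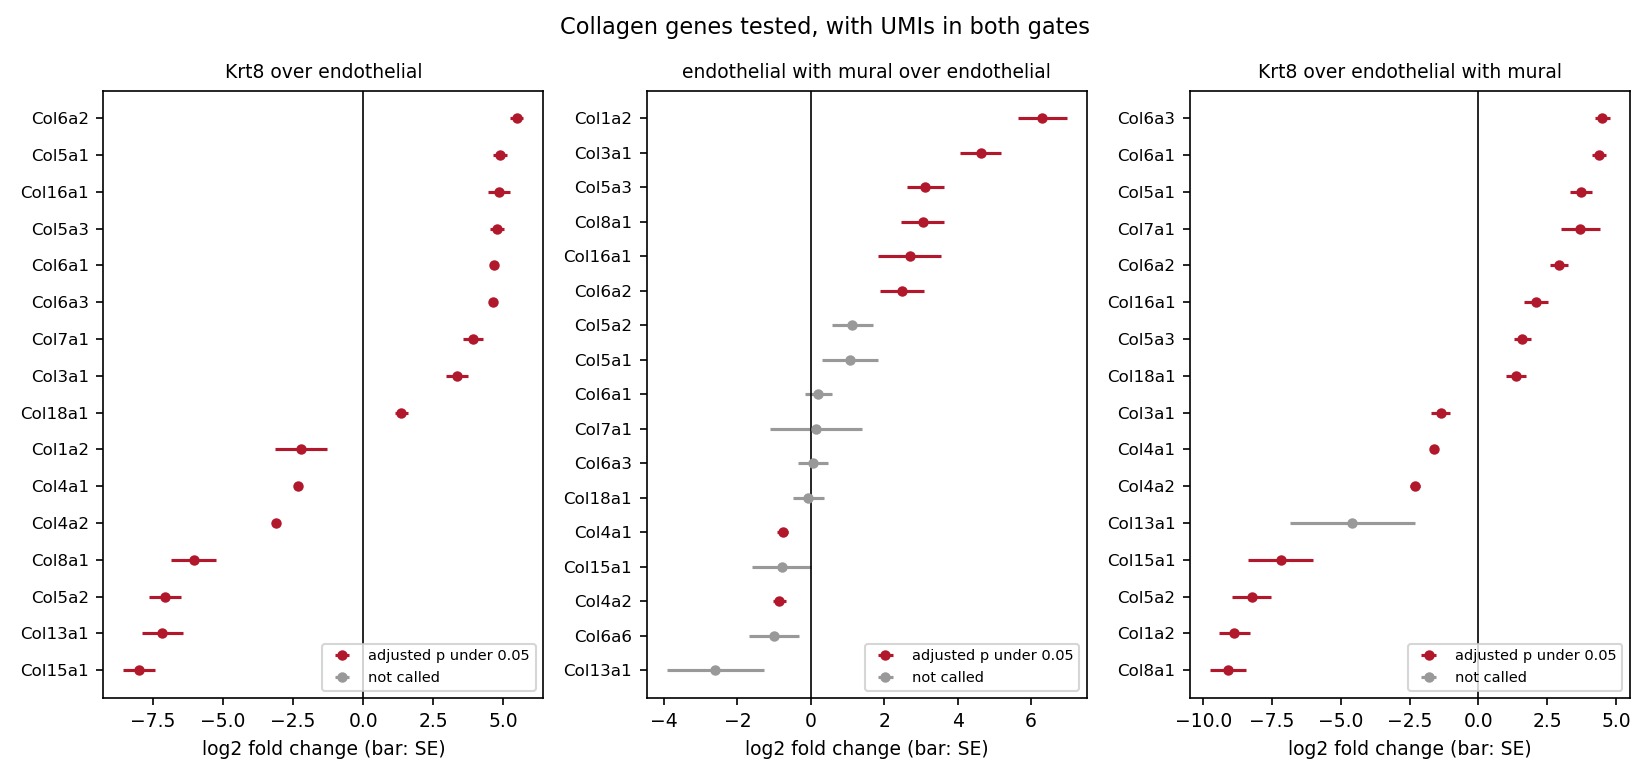
Points are log2 fold changes of collagen genes tested by edgeR that had UMIs in both gates, with bars for the standard error; red marks an adjusted p under 0.05 and grey genes that were not called. Col6a2 at 5.47 heads the Krt8-over-endothelial panel and Col15a1 at -7.98 ends it, and Col1a2 at 6.30 heads the panel of endothelial-with-mural over endothelial.

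Within the Krt8 gate the chains differed in how evenly they were spread over cells. Barcodes were thinned to 30000 UMIs, which kept 4295 and left out 25. A UMI of Col6a1 was then found in 99.2% of them, of Col6a3 in 98.3% and of Col4a1 in 97.2%. The top 10% of barcodes held 24.5% of Col6a1 UMIs and 23.4% of Col4a1 UMIs. These shares move with the mean count, which was 10.07 UMIs for Col6a1 and 0.40 for Col3a1. Col3a1 was concentrated for its mean: 15.6% of barcodes had a UMI, and the top 10% held 86.3% of its UMIs. Col7a1, at a mean of 0.61, was found in 42.9% of barcodes, with 40.3% of UMIs in the top 10%. The variance of Col3a1 was 5.26 times the mean. Within 7 single hashtag samples that ratio ran from 3.38 to 7.70. Members of much higher mean gave 4.51 for Col6a1 (2.71 to 5.82 within samples) and 3.84 for Col6a3 (mean 8.18 UMIs). Col7a1, nearer to Col3a1 in mean, gave 1.18. For Col5a1 the ratio was 1.502 and for Col16a1 1.21, against the value of 1 that counting alone gives. Their mean counts, 1.91 and 0.71, were lower than that of Col6a1, and the ratio also depends on the mean. Col1a1 was found in 1.63% of barcodes, at a ratio of 7.74.

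Counts of type VI chains were correlated with each other from cell to cell. Over these 4295 barcodes, which share 1 capture and a fixed depth but come from 8 samples, Pearson's r was 0.63 for Col6a1 with Col6a2, 0.52 for Col6a1 with Col6a3 and 0.40 for Col4a1 with Col4a2. The within-sample r of Col6a1 with Col6a2 ran from 0.49 to 0.75, and that of Col6a1 with Col6a3 from 0.18 to 0.60. The type V chains Col5a1 and Col5a3 gave 0.16 (within samples -0.08 to 0.29). Between families, Col6a3 with Col4a1 reached 0.479 and Col6a3 with Col18a1 0.416, both above the 0.414 of Col6a3 with Col6a2. The median over 45 pairs of 10 members was 0.21, and the lowest was 0.04, for Col16a1 with Col5a3 and Col7a1. Col6a1 and Col6a2 lie on chromosome 10 on the same strand, 85161 bases apart, and so, unlike Col4a1 and Col4a2, do not share a start region. These values describe the barcodes and carry no test.

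**Figure D4:**
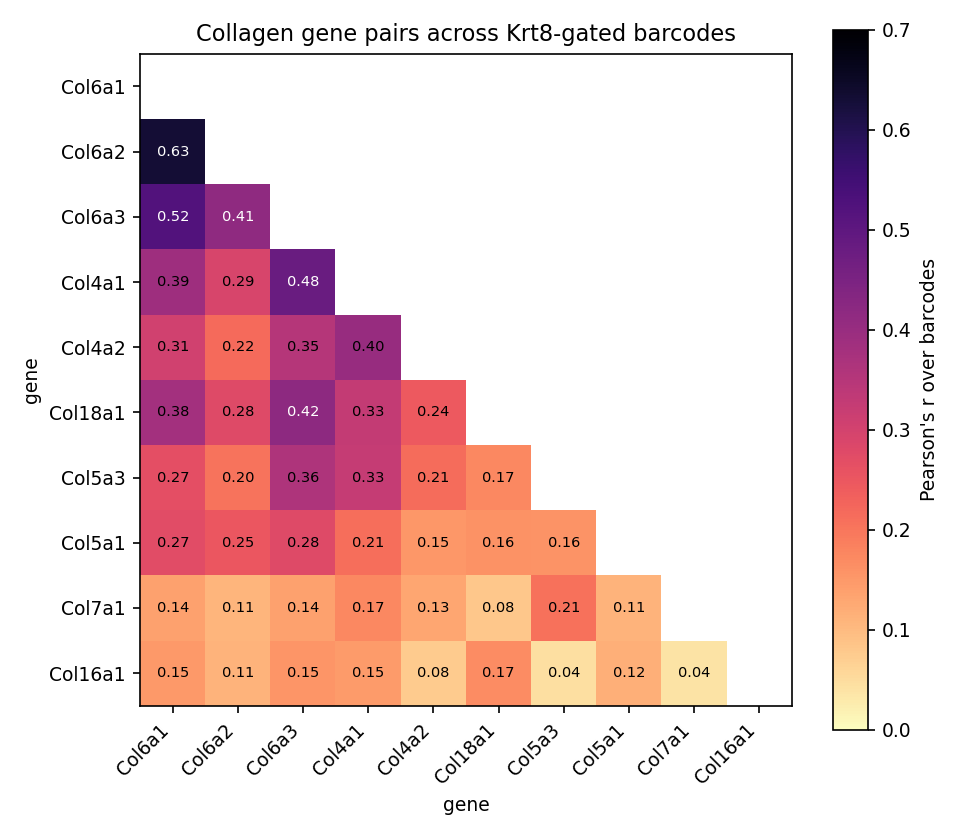
Each square gives Pearson's r between the UMI counts of a pair of collagen genes over 4295 Krt8-gated barcodes thinned to 30000 UMIs; darker is higher. The type VI pairs are dark (0.63, 0.52 and 0.41), but so are Col6a3 with Col4a1 (0.48) and with Col18a1 (0.42). The rows of Col7a1 and Col16a1, the genes with the lowest mean counts shown, are pale.

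Outside cancer and vessel cells, a few members were found in other classes. Col27a1, a fibrillar chain of cartilage, stood at a median of 59.2 CPM in microglia sums (15.7 to 82.1, n = 7) and 1.85 in Krt8-gated ones. Col9a3, a cartilage fibril surface chain, had 29 UMIs in 7 of 7 choroid plexus barcodes, all hashtag-negative, at 404 CPM (270 to 580). Col8a1 was found there at 153 (76.5 to 274) as well. Of the other members, Col12a1 had 37 UMIs in 4 of 12 fibroblast barcodes (341 CPM, interval 240 to 470), out of 135 in all barcodes kept. Col17a1 and Col2a1 had 719 and 163 UMIs in Krt8-gated barcodes. In all barcodes kept, Col22a1, Col19a1 and Col24a1 had 1, 3 and 4 UMIs. Over the same barcodes Col11a2 had 178 UMIs, Col8a2 146, Col14a1 133 and Col23a1 98. Col6a4, Col6a5, Col9a1, Col9a2, Col10a1, Col11a1, Col20a1, Col25a1, Col26a1 and Col28a1 had between 8 and 28 each, and none of these 14 genes passed the filter.

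Lists of genes that build, surround, bind and cut collagen were also compared between Krt8-gated and endothelial cells. Of 24 tested genes for collagen biosynthesis and crosslinking, 16 were higher and 4 lower in Krt8-gated cells (median log2 fold change 0.71). Pcolce (4.63, SE 0.16, adjusted p 1.216e-17) and Pcolce2 (5.28, SE 0.23, adjusted p 7.72e-16), which enhance the trimming of procollagen ends, were higher. Colgalt2, which adds galactose to collagen, was lower (-9.32, SE 0.60, adjusted p 1.374e-12). Of 17 other basement membrane genes, 4 were higher and 13 lower (median -1.62). Laminin chain Lama4 (-11.06, SE 0.28, adjusted p 1.947e-20) and nidogen Nid2 (-9.93, SE 0.47, adjusted p 4.604e-15) were lower, and Smoc1, with 0 endothelial UMIs, was at least 8.38-fold higher. These shares stand beside 37.1% higher and 35.7% lower over all genes. Krt8-gated means were 0.005 CPM for Colgalt2 and 0.03 for Lama4 and Nid2. The limit on p-values of genes near 0 in 1 class therefore holds for these 3 genes.

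Of 18 other interstitial matrix genes, 5 were higher and 11 lower in Krt8-gated cells (median log2 fold change -3.66). Fn1, fibronectin, was 0.82 CPM in Krt8-gated and 1114 in endothelial sums on average (-10.15, SE 0.16, adjusted p 1.728e-24). Fbln5 (-9.54, SE 0.68, adjusted p 1.995e-11) and Eln, elastin (-8.56, SE 0.42, adjusted p 1.06e-14), were lower too. Of 10 collagen receptor genes, 4 were higher and 4 lower. The collagen-binding integrin chains Itga1 (-7.75, SE 0.17, adjusted p 1.053e-21) and Itga2 (-7.28, SE 0.61, adjusted p 1.723e-10) and the receptor Antxr1 (-7.92, SE 0.49, adjusted p 6.249e-13) were lower. Of 9 breakdown genes, 5 were higher and 3 lower. Timp3, a protease inhibitor, was lower (-10.52, SE 0.20, edgeR adjusted p 8.442e-23), as was the membrane protease Mmp15 (-9.22, SE 0.46, adjusted p 1.178e-14). Mmp9, with 0 endothelial UMIs, was at least 10.3-fold higher. The limit on p-values of genes near 0 in 1 class applies here too. Krt8-gated means were 0.01 CPM for Fbln5, 0.05 for Eln, 0.03 for Itga2 and Antxr1, 0.02 for Mmp15 and 0.39 for Timp3.

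The same lists in endothelial-with-mural against endothelial cells gave 1 gene higher and 4 lower of 23 for biosynthesis, 4 and 2 of 14 for basement membrane, and 4 and 1 of 14 for interstitial matrix. Receptors gave 3 and 0 of 8, and breakdown 2 and 1 of 7, beside 6.24% and 5.44% over all genes. Pcolce, at 69.8 CPM on average against 9.73, rose by 2.68 (SE 0.28, adjusted p 1.845e-07 by edgeR), and Fkbp10, a collagen chaperone, and Plod1, a lysyl hydroxylase, fell by 1.19 (adjusted p 0.0246) and 0.88 (adjusted p 0.03361). The laminin chain Lama2 had 78 UMIs against 1, a ratio of 326 (exact interval 56.9 to 13052), and Lamc3 (4.22, SE 0.46, adjusted p 3.937e-07) and Ntn4 (3.74, SE 0.56, adjusted p 4.201e-05) rose as well. Spp1 (3.16, SE 0.47, adjusted p 3.293e-05), Bgn (1.97, SE 0.42, adjusted p 0.002354) and Fbln2 (1.96, SE 0.43, adjusted p 0.002655) rose among matrix genes. Among receptors Mrc2, which takes up collagen for breakdown, had 19 UMIs against 2, a ratio of 39.7 (9.59 to 352), and the collagen-activated kinase Ddr2 (2.34, SE 0.46, adjusted p 0.00103) and Itga1 (1.06, SE 0.18, adjusted p 0.0002467) rose. The protease inhibitors Timp3 (1.49, SE 0.20, adjusted p 6.818e-06) and Timp2 (1.24, SE 0.27, adjusted p 0.002728) rose, and Timp1 fell by 1.23 (SE 0.29, adjusted p 0.00466).

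Krt8-gated against endothelial-with-mural cells gave 15 genes higher and 3 lower of 23 for biosynthesis, 1 and 11 of 14 for basement membrane, and 3 and 10 of 14 for interstitial matrix. Receptors gave 3 and 4 of 8 and breakdown 3 and 3 of 7, beside 30.5 and 33.3% over all genes. Timp3 (-12.05, SE 0.25, edgeR adjusted p 3.894e-22), Fn1 (-9.68, SE 0.19, adjusted p 1.357e-22), Itga1 (-8.86, SE 0.22, adjusted p 1.026e-20) and Lama4 (-10.66, SE 0.40, adjusted p 6.029e-17) were lower in Krt8-gated cells. Their Krt8-gated means were 0.39, 0.83, 1.11 and 0.03 CPM, so the limit on p-values of genes near 0 in 1 class applies. Mmp14, a membrane protease that cuts fibrillar collagen, was higher, at 137 CPM on average against 21.0 (2.94, SE 0.36, adjusted p 1.998e-07). Nid2, Fbln5, Fbln1, Antxr1, Mrc2, Mmp15 and Colgalt2 were lower too, with log2 fold changes from -10.23 to -8.09. Lama2 had 1 UMI in Krt8-gated sums against 78, and Pcolce2 and Loxl4, higher in Krt8-gated cells, had 2 and 1 in endothelial-with-mural sums.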

How the data were processed

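Transcripts, antibody tags and hashtags of 1 capture (10x 3' chemistry) were read from the deposited matrix, whose values are raw UMI counts per feature and barcode. The submitters' processing notes name Cell Ranger 3.1, Seurat 3.1.1 and build mm10, with no annotation named. The quality filter (500 or more genes, mitochondrial UMIs up to 15%) passed 12334 of 12908 barcodes. HTODemux (Seurat 5.3.0, centred log ratios, quantile 0.99) gave 9896 singlets, 1712 doublets and 726 negatives. Hashtag doublets were left out, and doublets within a hashtag were not called.

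Gates required at least 10 UMIs and 100 CPM of the epithelial list, or 5 UMIs and 1000 CPM of a vascular list, with other lists low. Barcodes past the low limit of another list (614 mixed singlets) were left out. Several markers were dropped from the gates because other classes held them, after marker sums were seen. Counts were summed per gate and hashtag sample (at least 10 barcodes) and tested with edgeR 4.0.16 (TMM, filterByExpr, quasi-likelihood) in R 4.3.3, blocked by hashtag, with Benjamini-Hochberg adjusted p under 0.05 called; Krt8-gated, endothelial and mural (or endothelial-with-mural) sums shared 1 fit. The pairing comes from the hashtag, which both sums of a pair carry; deviations from class means correlated at -0.013 to 0.054 over samples 2 to 8. DESeq2 1.42.0 and other settings were alternatives, and the fit was tested on simulated data. A count of 0 was read against a floor of 3 counts over the gate. Levels are CPM (summed UMIs per 1000000 of the gate's UMIs), and 3' UMIs were not scaled by length. Total UMIs per sum ran from 4070469 to 110654499 for the Krt8 gate and from 270364 to 1335083 for the endothelial gate.

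Members with a median of at least 20 CPM in a carcinoma or vascular class are given by sample, and other lists by the 3 called genes with the largest fold change, in comparisons with at least 4 pairs; lists are not given for the 1 mural sum. Members and lists were chosen with earlier results of these data known. Endothelial-with-mural comparisons and the hashtag-negative barcodes were added after seeing the data.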

Additional observations from a re-analysis of the deposited data

Results flagged for a closer look

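Of 19 member levels checked for a sample far from the others, 2 were singled out, and chance alone singles out about 1 in 20. Col6a2 in Krt8-gated cells of sample 4 stood at 151 CPM (UMIs per 1000000), with the next highest sample at 123; the gap was 0.547 of the range of the 8 samples. Col4a1 in endothelial-with-mural barcodes of sample 6 stood at 1055, with the next at 611 and a gap of 0.853 of the range of the 4 samples. Sample 6 held 36 of these barcodes.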

How the results depend on the processing

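Of the 18 members called between Krt8-gated and endothelial cells, 16 kept direction and call under each alternative in which they were tested; Col1a1 and Col1a2 did not, the second at an adjusted p of 0.0674 with no filter. The count lower in Krt8-gated cells, 8, was 13 with no filter on low counts. It was 3 with only the 2 classes in the fit, with at least 20 barcodes per sum and with the hashtag margin rule, and 2 with doubled marker thresholds, where 12, 12, 12 and 11 members were tested. Thinned to 2000 UMIs, 8 were tested, 6 higher and 2 lower. Leaving out 1 sample gave 9 to 10 higher and 3 to 8 lower, the lowest without sample 5, which holds the only mural sum. Without the replicate block the counts were 9 and 8, and it moved no count by over 1.5 times. The mural comparisons gave no value when thinned, with 2 classes, with 20 barcodes, with the margin rule, with doubled thresholds or without sample 5, and leaving out any 1 of the others gave 3 higher and 1 lower than endothelial, with the same mural sum in each. Against the mural sum, DESeq2 called 1 member higher in Krt8-gated cells in place of 4, and leaving out 1 sample gave 4 to 5 in each direction. For endothelial-with-mural against endothelial cells, 1 was higher in place of 6 with only those 2 classes in the fit (4 tested). Thinned, 0 were higher and 0 lower of 7 tested (Col1a2 and Col3a1 were not among them), and without deep barcodes 2 were higher and 0 lower of 11. By edgeR at an unadjusted p under 0.05 these counts of 0 were 0 higher and 2 lower when thinned, and 3 lower without deep barcodes. Log2 fold changes near 0 changed sign there. Col18a1 turned to 0.0911 with DESeq2, 0.26 with 2 classes, 0.0293 with 20 barcodes, 0.0132 with the margin rule, 0.0899 with doubled thresholds, 0.23 thinned and 0.66 without deep barcodes, and ran from -0.49 to 0.24 with 1 sample left out. Col6a3 turned to -0.27 with 20 barcodes, -1.06 thinned and -0.96 without deep barcodes, and ran from -0.31 to 0.37. Col7a1 turned to -0.70 with 20 barcodes and ran from -0.77 to 0.95, and Col6a1 ran from -0.0649 to 0.40. None of these was called in either fit. For Krt8-gated against endothelial-with-mural cells, the count lower, 8, was 16 with no filter, 3 with 5 barcodes per sum, 2 thinned (5 higher) and 5 without deep barcodes. Leaving out 1 sample gave 7 to 8 higher and 7 to 10 lower there, and 4 to 6 higher and 2 lower for endothelial-with-mural against endothelial. Averaged over barcodes instead of summed, the median endothelial level was 770.8 CPM for Col4a1 and 529 for Col4a2. The filter on low counts asks for a least level in as many sums as the smallest class in the fit has. That is 1 sum while the mural sum is included, and more in every setting that leaves it out, so fewer members are tested there. Causes of these shifts were not tested further.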

Other observations

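The ratio of Col4a1 to Col4a2 UMIs differed between classes although the genes share a start region. It had a median of 2.71 in Krt8-gated sums (2.43 to 2.86, n = 8) and 1.64 in endothelial sums (1.42 to 1.80, n = 7), with no overlap. It was 1.75 in endothelial-with-mural sums (1.30 to 2.05, n = 4), 7.0 in the 1 mural sum and 2.07 in T and NK sums (1.0 to 6.6, n = 6). The classes differ in depth, and the ratio was not taken at equal depth. Within the endothelial gate, deep barcodes held Col4a1 and Col4a2 at 1373 and 802 CPM, and the others at 681 and 537. Within hashtag samples the log2 ratio was higher in Krt8-gated cells by 0.78 ± 0.11 (SD, n = 7 pairs), in 7 of 7 pairs, with a two-sided exact permutation p of 0.0156, the smallest that 7 pairs allow. The ratio was chosen after its values were seen, so this p-value only describes the order of the pairs. The Col6a1 to Col6a2 ratio was 2.82 in Krt8-gated sums (2.59 to 3.02, n = 8) and 2.64 in the 5 T and NK sums that held both genes (2.29 to 3.24).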
